A study of Mus musculus with 8 samples.

Results

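Kit and 9 receptors for cytokines of blood cells are described across 6 RNA libraries of cultured mouse cells. The 10 genes (Kit, Csf1r, Csf2rb, Csf2rb2, Csf2ra, Il3ra, Il4ra, Il2rg, Il9r and Il1rl1) were chosen by name, as the rows of the deposited expression table that carry their symbols, out of 54232 gene rows. All 10 were found, and all passed the filter on low values. They were named with their levels in these libraries in view, both between C28 and DMSO and between replicate 1 and replicates 2 and 3. Their values in those contrasts are therefore a description and support nothing further.

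The groups were 3 libraries of cells given C28, a code-named compound written 028 in the sample names, for 3 h, and 3 libraries of cells given the solvent DMSO for the same time. All cells are of C57BL/6 background and carry the label female germline stem cell (FGSC), a mitotic germ cell of the ovary grown in culture. The series as a whole concerns autophagy after C28. Its 2 H3K27ac libraries, 1 from C28 cells and 1 from control cells, are not used here, because their peaks carry mm9 coordinates and no gene positions of that build were at hand.

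Cytokine receptors of blood cells fall into a few families. Kit and Csf1r are receptor tyrosine kinases, which carry their own kinase. The receptors for IL-3, GM-CSF, IL-4 and IL-9 have no kinase and pair a chain specific for the cytokine with a shared chain, and JAK kinases bound to them phosphorylate STAT transcription factors. Il1rl1, also called ST2, belongs to the IL-1 receptor family and signals through MYD88 and IRAK kinases. Kit serves germ cells and melanocytes as well as blood stem cells and mast cells, and mast cells also respond to IL-3, IL-4, IL-9 and IL-33.

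The libraries held 16930212 to 19197376 reads assigned to genes. Values are normalized counts, which are reads divided by 1 size factor per library. The germ cell label was checked against 14 markers: 4 averaged at least 10 normalized counts, led by Etv5 at 1613 and Ifitm3 at 201, while Dppa3, Pou5f1 and Tfap2c had 0 reads, and Ddx4 had 4 reads and Dazl 1 read over all 6 libraries. Of 14 mast cell markers, 8 averaged at least 10, led by Gata2, a transcription factor of blood lineages, at 23743 and Ptprc, the leukocyte protein CD45, at 7527. Cpa3 came next at 6753. The other 6 had under 10 reads over all 6 libraries: Tpsb2, Fcer1a and Mrgprb2 had 0, Ms4a2 3, Mcpt4 4 and Tpsab1 7. The defining germ cell markers were thus at or near 0, and the libraries go against their label in this respect. The labels do not tie a library to a culture of its own, so p-values reflect the variation among these 6 libraries, part of which may be technical. In bulk RNA, fewer cells of a type and less RNA per cell cannot be told apart.

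Between C28 and DMSO, Il4ra was the receptor whose groups did not overlap, with C28 lower. Between replicate 1 and replicates 2 and 3, Il2rg, Il9r and Il3ra were at least 2-fold higher and Il1rl1 and Csf2ra at least 2-fold lower in replicate 1, without overlap. Kit, Csf2rb, Csf2rb2 and Il4ra differed by less than 2-fold in both contrasts.

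**Figure D1:**
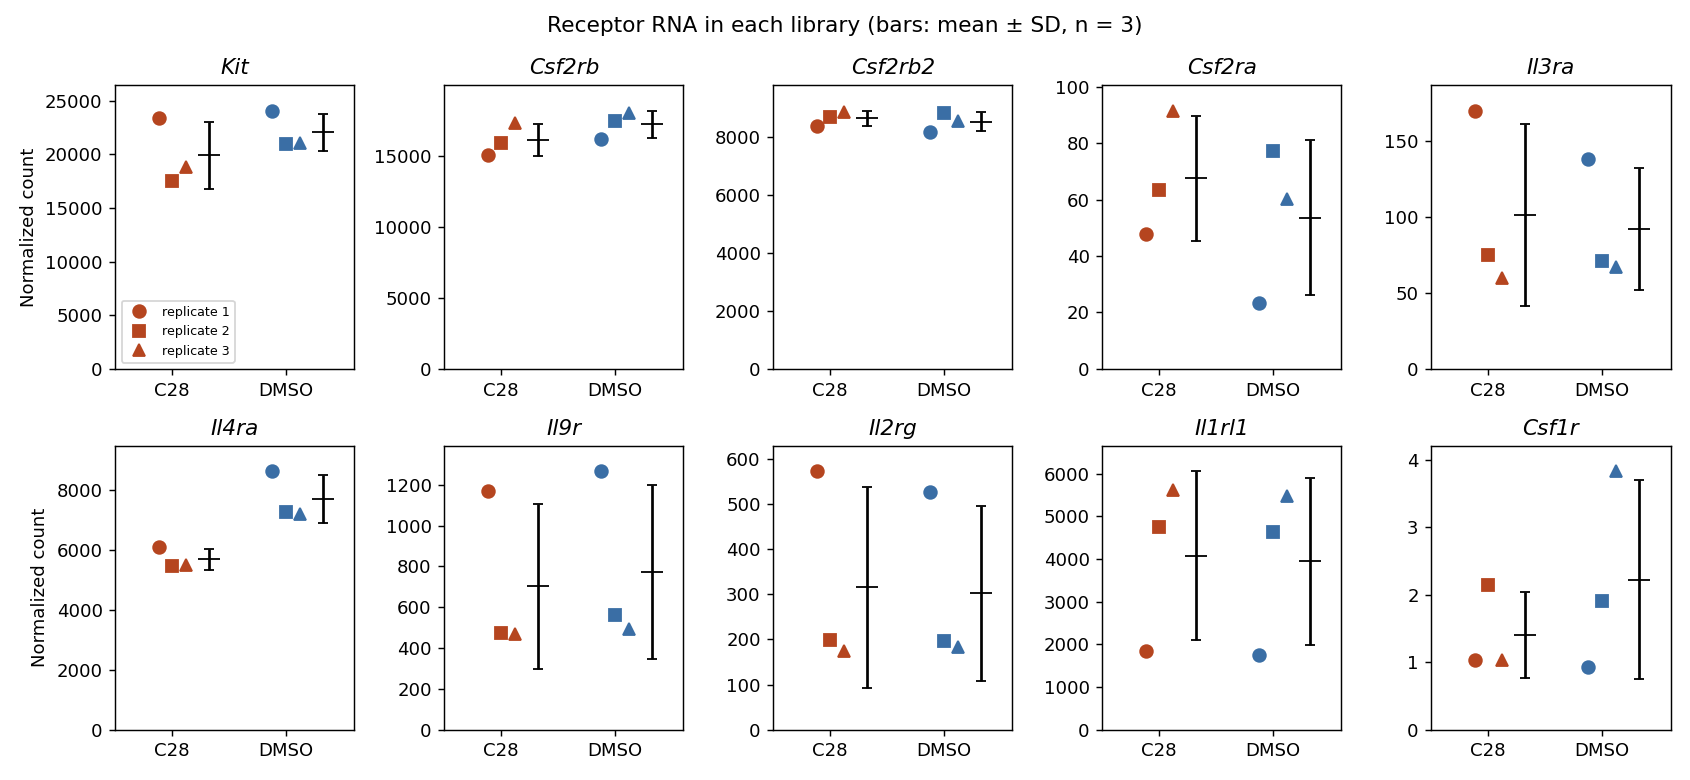
Normalized counts of the 10 receptor genes in each library, with C28 left of DMSO, the replicate number shown by the marker, and the mean ± SD of 3 libraries beside each group. Il4ra is lower in every C28 library than in every DMSO library, and Il9r, Il2rg, Il3ra and Il1rl1 separate replicate 1 from the other libraries in both arms.

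Kit encodes the tyrosine kinase receptor for stem cell factor. It had 23440.1, 17499.7 and 18844 normalized counts in C28 replicates 1 to 3, against 24074, 20977 and 21088 in DMSO replicates 1 to 3. C28 was below DMSO in 3 of 3 same-numbered pairs, by differences of -2.63%, -16.6% and -10.6%, but the groups overlapped, since C28 replicate 1 was higher than DMSO replicates 2 and 3. The means were 19928 ± 3115 with C28 and 22046 ± 1757 with DMSO (SD, n = 3 each), a log2 fold change of -0.15 with a 95% interval of -0.42 to 0.11. Kit had a limma adjusted p, by Benjamini and Hochberg over 19087 genes, of 0.855, and of 0.107 with the replicate number as a block. Without that adjustment Kit had a 95% interval of -0.26 to -0.048 with the block. With replicate 1 left out of both arms its log2 fold change was -0.21 and the limma adjusted p was 0.159 without the block and 0.00969 with it, so that Kit passed the threshold of 0.05 in that blocked fit. That fit has only 4 libraries, and its p leans on the spread that limma takes from all genes. It also uses the pairing of replicates 2 and 3, which is less certain. Both replicate 1 libraries had more Kit than the other 4, at a mean of 23757 against 19602 normalized counts, a log2 difference of 0.28.

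Csf1r, the related receptor for macrophage colony-stimulating factor, was near 0. It had 1, 2 and 1 reads in C28 libraries, against 1, 2 and 4 in DMSO libraries. The sums were 4 reads with C28 (95% Poisson interval 1.09 to 10.2) and 7 with DMSO (2.81 to 14.4), for counting error only, and no difference was detectable at this depth. Other macrophage markers were present, led by Adgre1 at a mean of 1348 and Spi1 at 1188 normalized counts.

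Csf2rb encodes the beta chain shared by the receptors for IL-3, GM-CSF and IL-5, and Csf2rb2 encodes a close mouse copy of it that serves IL-3. The copies are so alike in sequence that counting may have split reads between them, and each value is uncertain on its own. Csf2rb had 15074, 15899 and 17263 normalized counts in C28 libraries, against 16139, 17439 and 18004 in DMSO libraries. It was lower with C28 in 3 of 3 pairs, by differences of -6.60%, -8.83% and -4.12%, and the groups overlapped. Csf2rb2 had 8365, 8702 and 8867 with C28, against 8178, 8831 and 8564 with DMSO, and its pairs did not share a direction. The log2 fold change was -0.097 for Csf2rb (95% interval -0.27 to 0.072, and -0.19 to -0.0097 with the block) and 0.020 for Csf2rb2 (-0.11 to 0.16, and -0.070 to 0.11 with the block). Summed over both copies, the level was 24723 ± 1349.8 normalized counts with C28 and 25719 ± 1223 with DMSO (SD, n = 3 each). Of the reads on both copies, Csf2rb2 took 35.7%, 35.4% and 33.9% in C28 libraries and 33.6%, 33.6% and 32.2% in DMSO libraries. That share was higher with C28 in each pair. Its groups did not overlap, but by a narrow margin, with C28 replicate 3 at 33.9% and DMSO replicate 1 at 33.6%. Among single genes tested, the values of 14.6% did not overlap between the groups either. No such figure was drawn up for shares of other gene pairs, and the part of read splitting in this share was not tested.

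Csf2ra encodes the alpha chain that binds GM-CSF. It had 47.7, 63.3 and 91.5 normalized counts in C28 libraries, against 23.4, 77.1 and 60.3 in DMSO libraries. The values rested on 25 to 89 reads each, the pairs did not share a direction and the groups overlapped. The log2 fold change was 0.44 with a 95% interval of -0.62 to 1.50, and of -0.11 to 0.99 with the block, so a difference in either direction was not resolved.

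Il3ra encodes the alpha chain that binds IL-3. It had 170.2, 75.1 and 59.6 normalized counts in C28 libraries, against 138, 71.4 and 67.0 in DMSO libraries. Both replicate 1 libraries stood above the other 4, while C28 and DMSO overlapped. The mean was 154 in replicate 1 and 68.3 in replicates 2 and 3, a ratio of 2.26. Csf2ra went the other way, with means of 35.6 and 73.0, a ratio of 0.487. The shared chains differed less between the same libraries: Csf2rb averaged 15607 in replicate 1 and 17151 in the others, and Csf2rb2 8272 and 8741.

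Il4ra encodes the chain that binds IL-4, which pairs with the common gamma chain or with Il13ra1 and activates STAT6. It had 6086, 5463 and 5506 normalized counts in C28 libraries, against 8612, 7249 and 7204 in DMSO libraries. Every C28 library was below every DMSO library, with differences of -29.3%, -24.6% and -23.6% in the pairs. The means were 5685 ± 348 with C28 and 7688 ± 800.3 with DMSO (SD, n = 3 each), a ratio of 0.739 and a log2 fold change of -0.43 ± 0.088 (SE). In limma without the block Il4ra did not pass (adjusted p 0.207, 95% interval -0.64 to -0.23). With the block it fell, at a limma adjusted p of 0.000385 and a 95% interval of -0.53 to -0.34. With replicate 1 left out of both arms the limma adjusted p was 0.0242 without the block and 0.000807 with it. The last value has the limits given for Kit in that fit. The authors' deposited table gives Il4ra a log2 fold change of -0.38 and an adjusted p of 0.00827. The 250 bases before its start are shown because its groups separated, as RefSeq gives them for build GRCm38.p6, 5′ to 3′, with capitals at the match to AGGAAG, a core of ETS factor sites.
Il4ra (chr7:125552021-125552270, plus strand): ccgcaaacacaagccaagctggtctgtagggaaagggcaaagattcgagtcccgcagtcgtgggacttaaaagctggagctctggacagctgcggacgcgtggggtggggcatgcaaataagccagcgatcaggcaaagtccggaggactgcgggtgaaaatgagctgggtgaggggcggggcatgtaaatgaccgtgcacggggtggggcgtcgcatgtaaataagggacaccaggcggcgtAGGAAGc

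Il2rg encodes the common gamma chain, shared by the receptors for IL-2, IL-4, IL-7, IL-9, IL-15 and IL-21. It had 572, 199.6 and 175 normalized counts in C28 libraries, against 526, 196 and 183 in DMSO libraries. Replicate 1 was high in both arms, at a mean of 549 against 188 in replicates 2 and 3, a ratio of 2.92. That log2 difference was 1.61 within C28 and 1.47 within DMSO. The C28 and DMSO means were 315 ± 222 and 302 ± 195 (SD, n = 3 each), and the 95% interval of the log2 fold change was -1.23 to 1.28 without the block and -0.18 to 0.23 with it.

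Il9r encodes the chain that binds IL-9 and pairs with the common gamma chain. It had 1171, 473 and 468 normalized counts in C28 libraries, against 1265, 562 and 493 in DMSO libraries. Replicate 1 was again high in both arms, at a mean of 1218 against 499 in the others, and C28 was lower in 3 of 3 pairs, by differences of -7.46%, -15.9% and -5.07%. The log2 fold change was -0.15, with a 95% interval of -1.19 to 0.90 without the block and -0.29 to 0.0032 with it (limma adjusted p 0.288 with the block). Il4ra, another partner of the gamma chain, averaged 7349 in replicate 1 and 6356 in the others, with values that overlapped across the arms. Within each arm replicate 1 was highest, with a log2 difference of 0.15 within C28 and 0.25 within DMSO.

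Il1rl1 encodes ST2, the receptor for IL-33, and its row counts the membrane and the soluble form together. It had 1849, 4754 and 5622 normalized counts in C28 libraries, against 1744, 4632 and 5467 in DMSO libraries. The replicate 1 libraries were lowest in both arms, with a log2 difference from the others of -1.48 within C28 and -1.53 within DMSO. Within the pairs C28 was higher each time, by 6.06%, 2.62% and 2.84%. With the block the log2 fold change was 0.054, with a 95% interval of -0.043 to 0.15 and a limma adjusted p of 0.572.

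**Figure D2:**
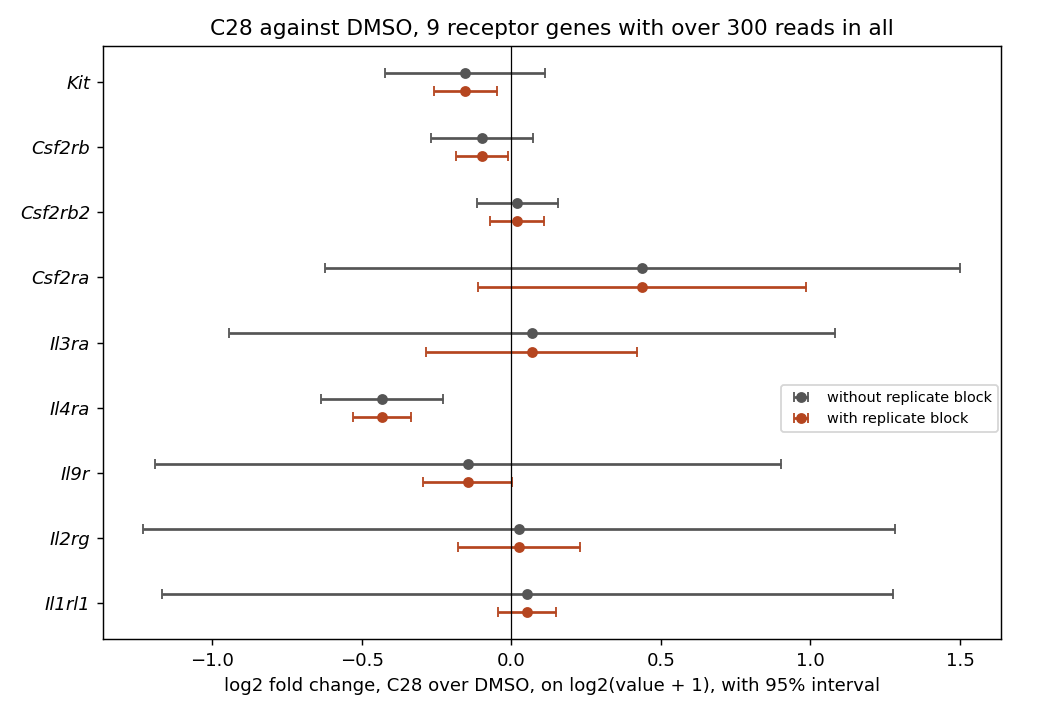
Log2 fold change of C28 over DMSO for the 9 receptor genes other than Csf1r, with 95% intervals from limma without and with the replicate block. Il4ra lies below 0 in both fits, at -0.43, and the intervals of Il2rg, Il9r and Il1rl1 are much narrower with the block.

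Of the 10 receptors, 0 passed in limma without the block, where 0.136% of all 19087 genes did. Before adjustment 1 lay under 0.05, against 1495 of all 19087 genes, and with the block 3 did, against 3465. edgeR called 0 of the 10, and DESeq2 called Il4ra as lower, as it did 0.32% of all genes. With the block 1 of the 10 fell, against 2.25% of all genes (4.79% in either direction). With replicate 1 left out, Il4ra fell, against 0.136% of all genes, and with the block as well Il4ra and Kit fell, against 2.18%. C28 lay below DMSO without overlap for 1 of 10 receptors and 6.5% of all genes, and 14.6% of all genes did not overlap in one direction or the other. The median log2 fold change was -0.039 over the receptors and 0.0045 over all genes tested.

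For replicate 1 against replicates 2 and 3, 7 of the 10 receptors did not overlap, 4 higher and 3 lower in replicate 1. Over all genes tested the share was 33.9%, with 16.9% higher and 17.1% lower. With a difference of at least 2-fold as well there were 5 receptors, 3 higher and 2 lower, and 7.53% of all genes, 3.17% higher and 4.36% lower. This split comes from the data, so no test is given and nothing is read from the counts. Marker sums of several lists separated the same libraries. The 14 germ cell markers summed to 1374 to 1612 normalized counts in replicate 1 and 1928 to 2199 in replicates 2 and 3. Etv5, at a mean of 1613, made up most of that sum, while Ddx4 had 4 reads and Dazl 1 read in all. The 10 macrophage markers summed to 2240.0 to 2439.6 normalized counts in replicate 1 and 3164 to 3895 in replicates 2 and 3, with 6 averaging at least 10. The 10 fibroblast and feeder markers, led by Fn1 and Dcn, summed to 1939 to 2164 and 3084 to 5176, with 7 averaging at least 10. The 9 erythroid and megakaryocyte markers, led by Itga2b and Gata1 and with Hbb-b1 at 0, summed to 3937 to 4072 and 3127 to 3294. Itga2b, at a mean of 3254, made up most of that sum. The 14 mast cell markers overlapped in sum, at 41832 to 45762 and 42395 to 43845. Gata2, at a mean of 23743, made up most of that sum, which therefore says little of the lower markers. Over the 6 libraries Cpa3 ranged from 5016 to 8401 normalized counts, Mcpt8 from 41.5 to 112, Hdc from 1.87 to 117 and Cma1 from 9.35 to 31.1. The part of the listed markers' cell types in the receptor differences was not tested.

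**Figure D3:**
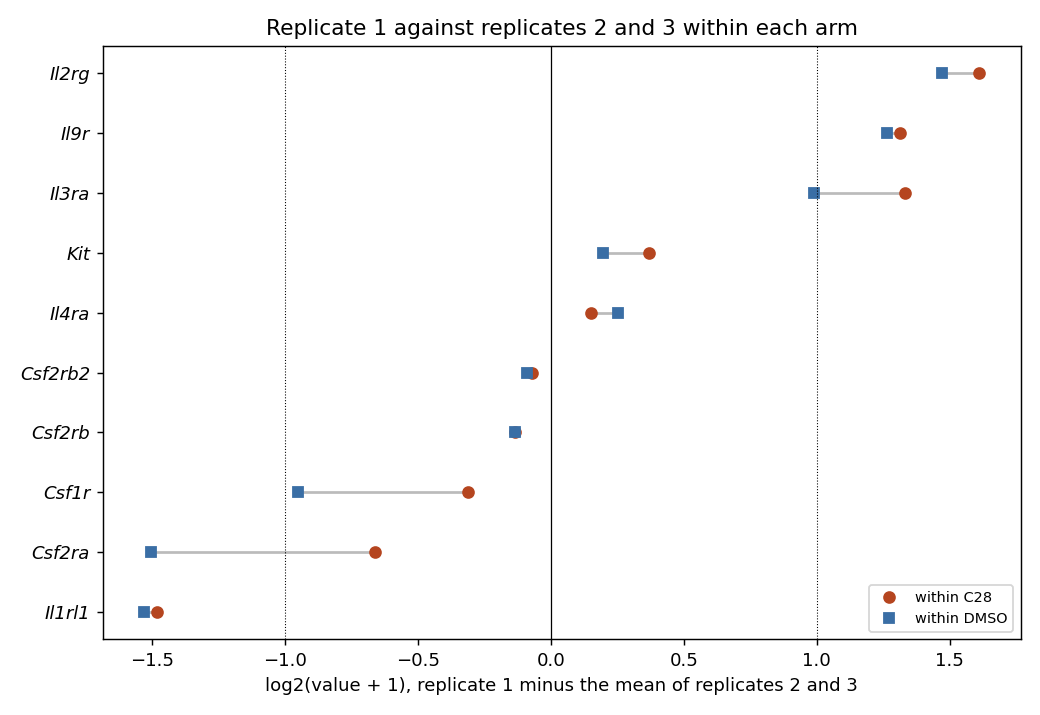
Difference of log2(value + 1) between replicate 1 and the mean of replicates 2 and 3, within C28 and within DMSO, for the 10 receptor genes. Il2rg and Il9r lie above 1 and Il1rl1 below -1 in both arms, while Csf2ra lies at -0.66 within C28 and -1.50 within DMSO.

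RefSeq promoter sequences were searched for 8 of the 10 receptors, all but Csf1r and Csf2rb. The receptor search left out the entries of a single chromosome, which the shares over all promoters kept. A receptor was counted if any of its starts had a match, while those shares count each start as a promoter of its own. The 250 bases before each start were searched on both strands for AGATAA, a core of sites for GATA factors, for TTCNNNGAA, a site of STAT factors, and for AGGAAG, and no match in a receptor promoter overlapped one of another motif. AGATAA was found for 2 of the 8, Il1rl1 and Il9r, and in 9.99% of 32851 promoters. AGGAAG was found for 6, Kit, Il4ra, Il3ra, Il2rg, Csf2ra and Csf2rb2, and in 29.5% of promoters, and TTCNNNGAA for Csf2rb2 and in 7.02% of promoters. Il9r and Il1rl1, both with AGATAA, differed between the replicates in opposite directions. The part of these matches in the receptor levels was not tested. The promoters of Il9r, Il2rg, Il3ra and Il1rl1 are shown because these receptors were high or low in replicate 1, with capitals at the matches, which on the other strand read TTATCT or CTTCCT.
Il9r (chr11:32200280-32200529, minus strand): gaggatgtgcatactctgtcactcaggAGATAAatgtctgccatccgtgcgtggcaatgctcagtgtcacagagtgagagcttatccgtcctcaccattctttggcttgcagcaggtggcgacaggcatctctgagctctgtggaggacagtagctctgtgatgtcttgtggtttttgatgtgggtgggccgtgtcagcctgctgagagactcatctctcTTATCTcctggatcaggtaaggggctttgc
Il2rg (chrX:101268256-101268505, minus strand): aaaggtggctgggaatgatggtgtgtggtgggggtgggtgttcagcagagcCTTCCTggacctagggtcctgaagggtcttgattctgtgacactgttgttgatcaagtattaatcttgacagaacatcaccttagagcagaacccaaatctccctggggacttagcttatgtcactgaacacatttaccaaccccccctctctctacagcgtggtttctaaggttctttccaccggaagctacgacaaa
Il3ra (chr14:14346245-14346494, plus strand): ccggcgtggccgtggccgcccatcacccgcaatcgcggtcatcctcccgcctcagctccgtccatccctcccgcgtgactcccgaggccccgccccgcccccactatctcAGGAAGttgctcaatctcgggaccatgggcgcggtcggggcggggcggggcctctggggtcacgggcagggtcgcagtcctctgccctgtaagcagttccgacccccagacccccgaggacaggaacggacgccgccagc
Il1rl1, upstream start (chr1:40429320-40429569, plus strand): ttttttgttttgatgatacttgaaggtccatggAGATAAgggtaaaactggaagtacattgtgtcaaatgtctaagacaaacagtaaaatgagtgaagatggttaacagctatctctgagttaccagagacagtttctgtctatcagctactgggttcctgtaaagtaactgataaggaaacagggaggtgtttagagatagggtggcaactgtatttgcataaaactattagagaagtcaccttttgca
Il1rl1, downstream start (chr1:40439379-40439628, plus strand): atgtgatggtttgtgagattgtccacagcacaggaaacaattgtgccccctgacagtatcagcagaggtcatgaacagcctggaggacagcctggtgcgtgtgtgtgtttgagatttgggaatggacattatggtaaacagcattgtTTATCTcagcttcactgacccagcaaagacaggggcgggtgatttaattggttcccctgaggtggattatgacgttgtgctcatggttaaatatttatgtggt

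The other genes of these pathways were taken as 5 lists: ligands, other cytokine receptors, kinases with adaptors and STATs, negative regulators, and STAT5 target and survival genes. Of 124 list genes tested, 0 passed between C28 and DMSO in limma without the block. Before adjustment 12 had p under 0.05, against 1495 of 19087 over all genes. edgeR called 0, and DESeq2 called 1, Cdkn1a, which rose there as 0.634% of all genes did. With the block 4 rose and 16 fell, against 2.54% and 2.25% of all genes. The calls named in the paragraphs that follow are those of the blocked fit in limma, with its adjusted p.

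The ligands of the receptors were unevenly present. Il3 and Il9 had 0 reads, as did Il21, a ligand that uses Il2rg; a count of 0 allows up to 3 of the 108208382 reads in all libraries. Csf2, which encodes GM-CSF, had 66 reads in all. Kitl, which encodes stem cell factor, had 175, 189 and 292 normalized counts in C28 libraries, against 60.8, 165 and 269 in DMSO libraries. C28 was higher in each pair of Kitl, the groups overlapped and Kitl did not pass (adjusted p by limma 0.177). Il4 had 213, 444 and 333 with C28, against 165, 395 and 291 with DMSO, and was lowest in replicate 1 in both arms. Il33, the ligand of Il1rl1, had 24.9, 187 and 452 normalized counts with C28, against 15.0, 191 and 381 with DMSO. Il13, which uses Il4ra together with Il13ra1, had 95.5, 782 and 524 with C28, against 90.7, 867 and 610.3 with DMSO. Both were low in replicate 1, as Il1rl1 was, with a log2 difference from the others of -3.79 for Il33 and -2.86 for Il13. Of 12 ligands tested, 1 rose and 2 fell. Csf1, the ligand of Csf1r, rose (1.26-fold, adjusted p by limma 0.0168), and the IL-6 family cytokines Lif (0.686-fold, adjusted p 0.00217) and Osm (0.852-fold, adjusted p 0.0265) fell. In the fit without the block, leaving out 1 library moved the log2 fold change of Csf1 from 0.33 over a range of 0.0012 (without DMSO replicate 1) to 0.69 (without C28 replicate 1), and that of Osm from -0.22 over -0.45 (without DMSO replicate 1) to -0.026 (without C28 replicate 1).

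Of the listed receptors, 8 join a member: Il2ra, Il2rb, Il7r, Il15ra and Il21r join Il2rg, Il13ra1 joins Il4ra, Il1rap joins Il1rl1 and Il5ra joins Csf2rb. They are given as partners, outside the naming rule and with their values in view. In both replicate 1 libraries 4 of the 8 were lower than in the other 4 and 0 were higher, against 17.1% lower and 16.9% higher over all genes. Il2ra, the IL-2 binding chain that joins Il2rg, averaged 316 normalized counts in replicate 1 and 1312 in replicates 2 and 3. Il13ra1, the partner of Il4ra, averaged 24.3 and 99.0, Il1rap, the accessory chain of Il1rl1, 18.6 and 38.2, and Il7r, which joins Il2rg for IL-7, 9.40 and 27.2. The others overlapped: Il15ra averaged 253 and 273, Il21r 83.1 and 76.2, and Il2rb 4.10 and 4.95, while Il5ra, which serves IL-5, had 30 reads in all.

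Of 32 other cytokine receptors tested, 2 fell and 0 rose with C28. Ifngr2, a chain of the interferon gamma receptor, had 658, 940.0 and 914 normalized counts with C28, against 930.2, 1208 and 1219.6 with DMSO (0.748-fold, adjusted p by limma 0.00249). Pdgfrb, a receptor tyrosine kinase of fibroblasts and other stromal cells, had 40.5, 161 and 174 with C28, against 52.4, 257 and 277 with DMSO (0.639-fold, adjusted p by limma 0.0353). Each was lower with C28 in all 3 pairs, and both overlapped between the groups. The 10 fibroblast and feeder markers, Pdgfrb among them, summed to 2164 to 5176 normalized counts in C28 libraries and 1939 to 4996 in DMSO libraries. The part of such cells in the value of Pdgfrb was not tested. The members of this list with the highest values, Il18rap, Il17ra and Tgfbr1, did not pass, with means of 8773, 2213 and 1367 with C28 and 8934, 2453 and 1169 with DMSO.

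Among 40 kinases, adaptors and STATs tested, 2 rose and 2 fell. Stat5a, a STAT used by the receptors for IL-3, GM-CSF and IL-9, had 2617, 2289.9 and 2346 normalized counts with C28, against 3245, 2943 and 2935 with DMSO. Its groups did not overlap, at 0.795-fold, with an adjusted p by limma of 0.00233 with the block and 0.294 without it. Its close relative Stat5b had means of 2503 and 2662, and Stat6, the STAT of the IL-4 receptor, 1536 and 1505, and neither passed (adjusted p by limma 0.374 and 0.872). Syk, a kinase of immune receptors, fell (0.808-fold, adjusted p 0.0105), and the Src family kinase Fyn (1.27-fold, adjusted p 0.0106) and the adaptor Shc1 (1.22-fold, adjusted p 0.0121) rose. Without the block, the log2 fold change with 1 library left out covered -0.56 (without DMSO replicate 1) to -0.062 (without C28 replicate 1) for Syk and 0.14 (without C28 replicate 1) to 0.48 (without DMSO replicate 1) for Fyn. Pik3cd, the leukocyte PI3 kinase, Akt1 and Nras had the highest values and did not pass, with Pik3cd at 19857 with C28 and 19505 with DMSO.

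Of 26 negative regulators tested, 2 fell. Socs1, an inhibitor of JAK kinases, had 1705, 1750.2 and 2006 normalized counts with C28, against 2172, 2445 and 2466 with DMSO, without overlap (0.771-fold, adjusted p by limma 0.0027). Sigirr, an inhibitory member of the IL-1 receptor family, had 684, 729.7 and 792 with C28, against 814, 916 and 965 with DMSO, also without overlap (0.818-fold, adjusted p 0.0205). The phosphatases Ptpn6 and Inpp5d and the feedback inhibitor Socs2 had the highest values and did not pass, with Socs2 at 4237 with C28 and 4670.3 with DMSO.

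In the list of STAT5 target and survival genes, 10 of 19 fell and 1 rose with the block. Without it 0 passed in limma, 0 in edgeR and 1 in DESeq2. Before adjustment 6 lay under 0.05 in limma without the block, against 1495 of 19087 over all genes. The blocked calls were 57.9% of the list, against 4.79% of all genes, and its median log2 fold change was -0.22, against 0.0045 over all genes; the list was chosen with earlier results of these data known, so nothing particular to it is read from this. Ccnd1, which encodes cyclin D1, had 1011, 1763 and 2129 normalized counts with C28, against 2098, 3059 and 3195 with DMSO (0.587-fold, adjusted p by limma 0.00024). Each pair was lower with C28, and C28 replicate 3 was just above DMSO replicate 1. Pim2, a survival kinase, had 744, 1324 and 1040.2 with C28, against 1229, 1758 and 1337 with DMSO (0.719-fold, adjusted p 0.00332). Gfi1, a repressor of blood lineages, was at 512 ± 116 with C28 and 694 ± 65.7 with DMSO (SD, n = 3 each), without overlap, and fell (adjusted p by limma 0.0108). Myc, a regulator of growth, had 7123, 6379 and 6346 with C28, against 8954, 7767 and 7844 with DMSO, without overlap (0.808-fold, adjusted p by limma 0.00185 with the block and 0.355 without). Cdkn1a, the cell cycle inhibitor p21 and also a p53 target, rose: it had 3263, 3720.3 and 3268 normalized counts with C28, against 2332, 2867 and 2514 with DMSO (1.33-fold, adjusted p 0.000776). Beyond the largest changes, the survival gene Bcl2l1 (0.860-fold, adjusted p 0.0217 blocked and 0.455 unblocked), the D cyclin genes Ccnd2 (0.813-fold, adjusted p 0.0111 blocked and 0.747 unblocked) and Ccnd3 (0.862-fold, adjusted p 0.0239 blocked and 0.756 unblocked), and Id1 (0.776-fold, adjusted p 0.0119 blocked and 0.803 unblocked), an inhibitor of differentiation factors, fell, all by limma. Lif and Osm, which fell as well, are also in the ligand list. Mcl1, a survival gene and, after Myc, among the 3 with the highest values along with Socs2, did not pass, at 4779 ± 328 with C28 and 4569 ± 117 with DMSO (SD, n = 3 each). Many of these genes answer to signals other than STAT5, and the part of STAT5 in their changes was not tested. Cish and Pim1, further STAT5 targets of this list, did not pass. Their means were 3021 and 1983 with C28 and 3022 and 1964 with DMSO.

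**Figure D4:**
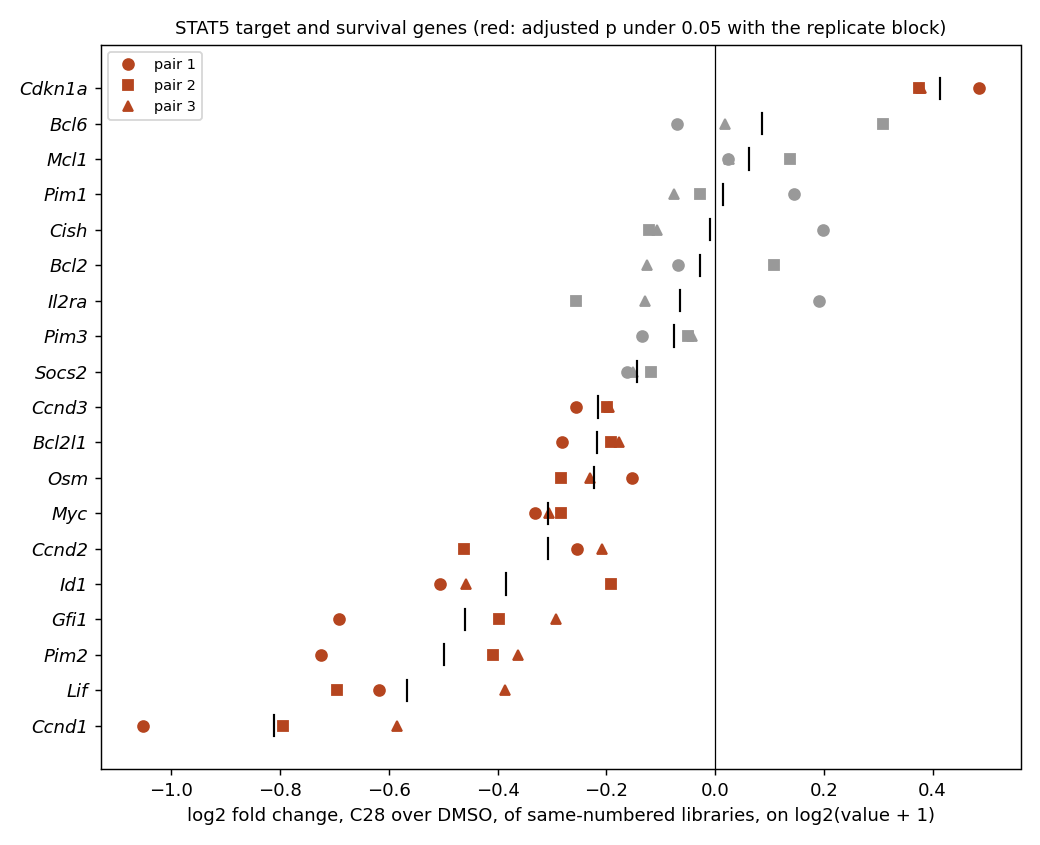
Log2 fold change of C28 over DMSO in each same-numbered pair of libraries, with the mean over pairs, for 19 STAT5 target and survival genes. The 10 genes that fell with the replicate block lie below 0 in all 3 pairs, and Cdkn1a lies above 0 in all 3.

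Genes outside the receptors whose levels ran most like Kit, Il9r and Il1rl1 were sought among 10569 genes averaging at least 50 normalized counts, by Pearson's r of log2(value + 1) over the 6 libraries. For Kit these were Tnfrsf18, a TNF receptor family member (r = 0.993), Rasal3 and Arhgef40. For Il9r they were Gzmb, the granule protease granzyme B (r = 0.999), Itgb2, a leukocyte integrin chain, and Cpsf2, an mRNA processing factor. For Il1rl1 they were Cep85l (r = 0.999), Aak1 and Sema7a. The libraries share arms and replicate numbers and replicate 1 stands apart, so many genes were nearly as alike: r was above 0.95 for 92 genes with Kit, 358 with Il9r and 314 with Il1rl1.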

How the data were processed

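RNA was measured in 3 C28 and 3 DMSO libraries, grouped and numbered by their titles. Per the labels' protocols the libraries were made from isolated mRNA and read in pairs; a strand-marking kit and another kit are both named, so overlapping antisense genes may share reads. The submitters' processing notes name the build mm9, Bowtie2 and Cufflinks 2.2.1; the counting method is not given in the sources used here. Deposited expression values are a signal that the authors obtained as read counts over a size factor for each library. This was checked on the values, of which 100% fell within 0.01 of a whole number of reads, and the reads were recovered from them. The table's log2 fold changes and p-values are those of the authors.

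The members, lists and tests were chosen with earlier results of these data known. A gene entered the test if its value reached 1 in 3 or more libraries (19087 genes). limma 3.58.1 (R 4.3.3, trended prior variance) was run on log2(value + 1), a scale that understates changes of low genes, with Benjamini-Hochberg adjustment over all of them and a threshold of 0.05. The design had foreseen edgeR for raw counts; the values are normalized, so limma was used, and edgeR 4.0.16 and DESeq2 1.42.0 were run on the recovered reads as alternatives. The limma fits with and without the block, edgeR and DESeq2 were tested on simulated counts with 200 genes changed 2-fold: DESeq2 made 14 false calls, edgeR 2 and each limma fit 1. The simulated counts had the same dispersion for every gene and no replicate effect. They therefore cannot show how the blocked fit behaves where replicate 1 stands apart. The other alternatives were not simulated. Folds are ratios of group means. Deviations from the group means correlated between same-numbered libraries (0.84, 0.68 and 0.70 for replicates 1 to 3, over 10578 genes averaging at least 50). Differently numbered libraries also correlated, at 0.54 for C28 replicate 3 with DMSO replicate 2 and 0.41 for C28 replicate 2 with DMSO replicate 3, and replicate 1, which stands apart in both arms, may raise those of replicates 2 and 3, so the pairing of 2 and 3 is less certain. The pairing rests on these values and on no label, and the blocked value is printed where it changed the call of a named gene. All pairs of libraries within a group differed by more than counting noise. The naming rule took, from each pathway list, the genes called in either fit (the 5 largest where more) and the 3 with the highest mean, the 3 genes most like Kit, Il1rl1 and Il9r, and the 2 highest and the zero-count genes of marker lists. Named outside it are ligands and partners of members, further STAT genes, STAT5-induced genes, calls beyond the 5 largest and further germ cell and mast cell markers. Lists of lymphocyte, granulocyte, ovarian somatic and endothelial markers were also measured. At least 10 on average was reached by 2 of 11 T and natural killer markers (highest Gata3 and Lck; Cd3g, Cd8a, Ncr1 and Klrb1c at 0), 1 of 6 B cell markers (Ebf1 and Cd79a; Cd79b and Ms4a1 among those at 0), 0 of 9 granulocyte markers (S100a8 and Cebpe; Ly6g, S100a9, Elane, Prg2 and Ear1 at 0), 2 of 10 ovarian somatic markers (Star and Amh; Foxl2, Cyp19a1, Inhbb and Hsd3b1 at 0) and 1 of 6 endothelial markers (Pecam1 and Cdh5; none at 0). One marker gene is not reported here.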

Additional observations from a re-analysis of the deposited data

How the results depend on the processing

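Without the replicate block 23 genes rose and 3 fell. With the replicate block 485 rose and 429 fell. Another pseudocount, filter or edgeR kept both counts within 1.5 times. DESeq2 gave 121 and 61. Leaving replicate 1 out of both arms gave 64 and 26, and 438 and 416 with the replicate block as well. The last fit has only 4 libraries, leans on the spread over all genes and uses the less certain pairing of replicates 2 and 3. Leaving out single libraries gave 0 to 21 that rose and 0 to 2 that fell; the total was lowest, at 0, when C28 replicate 2 was left out (in limma, with 1207 genes under 0.05 before adjustment), and 9, 8 and 5 when DMSO replicates 1 to 3 were, 8 for C28 replicate 3 and 23 for C28 replicate 1. Receptors that fell numbered 1 with the replicate block, 1 in DESeq2, 1 with replicate 1 left out and 2 with both changes, against 0 without. List genes numbered 4 that rose and 16 that fell with the replicate block, 5 and 16 with replicate 1 also left out, and 1 that rose in DESeq2. With single libraries left out, 0 receptors and 0 list genes passed. The cause of these differences was not tested.

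The log2 fold change of Il3ra was -0.046 and that of Il2rg -0.019 with replicate 1 left out, and -0.046 and -0.019 with the replicate block too. With single libraries left out it ranged over both signs for Il3ra (-0.38 to 0.40), Il2rg (-0.51 to 0.52), Il1rl1 (-0.46 to 0.55), Il9r (-0.58 to 0.28), Csf2ra (-0.064 to 0.78), Csf2rb2 (-0.0091 to 0.046) and Pdgfrb (-1.35 to 0.10), and stayed below 0 for Il4ra (-0.48 to -0.35), Kit (-0.28 to -0.066) and Csf2rb (-0.15 to -0.052). Of the list genes named as called, it kept its sign for Csf1 (0.0012 to 0.69), Osm (-0.45 to -0.026), Lif (-0.78 to -0.42), Ifngr2 (-0.55 to -0.26), Syk (-0.56 to -0.062), Fyn (0.14 to 0.48), Shc1 (0.14 to 0.38), Stat5a (-0.39 to -0.28), Socs1 (-0.45 to -0.33), Sigirr (-0.36 to -0.23), Ccnd1 (-1.04 to -0.50), Pim2 (-0.69 to -0.28), Gfi1 (-0.62 to -0.28) and Cdkn1a (0.35 to 0.49). No such range was drawn up for Myc, Bcl2l1, Ccnd2, Ccnd3 and Id1, which were also named as called. Depth limits Csf1r, with 4 reads with C28 and 7 with DMSO. The planned peak alternatives were not run.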
